A study of Homo sapiens with 25 samples.

Results

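Ungated hiF-T cells were compared with hiF-T cells taken from 4 gates of dye accumulation. These are human fibroblast-like cells derived from BJ skin fibroblasts that carry introduced hTERT, the catalytic subunit of telomerase. The comparison used the 20 sorted or ungated libraries of the 25 in the series, chosen by their labels. All 20 came from 1 cell line, were labelled wild type and had no drug treatment. The groups were ungated cells, high dye, midhigh dye, midlow dye and low dye, each with 4 biological replicates numbered 1 to 4. The labels give neither the share of cells in each gate nor which dye level goes with slow division. They also do not say whether the ungated cells passed through the sorter, so selection by a gate and handling in the sorter cannot be told apart.

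A sort can alter RNA in 2 ways that are known from other work. Detachment, pressure and waiting time switch on immediate early genes such as FOS, JUN and EGR1, together with chaperones of the heat shock response. Selection by a gate changes the mix of cell states, which in a dividing culture shifts the genes of DNA replication and mitosis and the targets of p53, the factor that halts the cycle through CDKN1A. An ungated culture holds all of these states at once, so its level of a gene is an average over its cells. Bulk libraries cannot tell fewer cells of a type from less RNA per cell.

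The libraries held 15015039 to 20030093 gene counts, and no measure of library quality differed between ungated and gated cells by a test. The share of reads assigned to no feature was 5.81% ± 0.47 in ungated and 6.09% ± 0.47 in gated cells (SD over 4 replicates, the gates averaged within each number). In an exact permutation test within replicate numbers, two-sided over 625 assignments with a smallest possible p of 0.0016, this gave p = 0.485. Genes with at least 1 count numbered 22970 ± 339 in ungated and 23220 ± 697 in gated cells (exact permutation p = 0.670). All 5 measures tested had an adjusted p of 1.0. The 12 fibroblast markers had summed levels of 21364 to 23113 CPM in ungated replicates 1, 2 and 4 and 21665 CPM in ungated replicate 3, against 17473 to 30006 CPM in the gates. A few abundant genes carry that sum: by gene, 11 of the 12 were higher in ungated replicate 3 than in its gates, with a median of 0.44, and the list's mean of 6.57 log2 CPM was above the 5.58 to 6.40 of the other 19 libraries. CPM are counts scaled to 1000000 gene counts per library.

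No gene was called different between ungated cells and the mean of the 4 gates. With the replicate number as a block, 0 of 14592 genes (0%) passed an adjusted p of 0.05 in edgeR's quasi-likelihood F test. At an unadjusted p under 0.05 there were 972 genes, 660 higher and 312 lower in ungated cells. DESeq2 called 0 genes as well, with 797 at an unadjusted p under 0.05. Without ungated replicate 3, the number called was 0 of 14857 (0%), and 312 genes had an unadjusted p under 0.05. DESeq2 without that library also called 0, with 192 at an unadjusted p under 0.05. The median log2 fold change over all genes was 0.01 with all 20 libraries and 0.01 without ungated replicate 3.

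The libraries bounded most differences closely. Among the 10160 genes with a mean of at least 5 CPM, the 95% interval of the difference lay within 1.5-fold in either direction for 10056 (99%). Over all 14592 genes tested, 11893 (81.5%) were bounded within 1.5-fold and 13955 (95.6%) within 2-fold. Without ungated replicate 3 the first of these shares was 99.6%, or 10117 of 10153 genes. The count of calls moved under 5 changes of the comparison, most under the following. With no filter on low counts, edgeR called 178 genes, 159 higher and 19 lower in ungated cells, of which 2 were still called without ungated replicate 3. Of the 178, 177 had also been tested with the filter, and ungated replicate 3 was the highest of the 20 libraries in 96. COL3A1, for example, kept a difference of 0.61, while its adjusted p in edgeR went from 0.681 with the filter to 1.17e-18 without it. When the high gate was left out, 29 genes were called, all higher in ungated cells, and all 29 were also called higher in high than in low dye. Leaving out the high gate lowers the mean of the gates for genes that rise with dye and raises it for genes that fall. There were 0 calls lower in ungated cells, and the cause of the 29 calls was not tested. Of those 29, 6 were still called without ungated replicate 3. The other three changes gave 1 or 2 calls.

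KDM1A, which encodes the histone demethylase LSD1, had 159, 164, 148 and 151 CPM in ungated replicates 1 to 4, against group means of 173, 171, 144 and 134 CPM from the low to the high gate. Its log2 fold change against the mean of the gates was 0.01 ± 0.05 (SE), with an adjusted p of 0.988 in edgeR and a 95% interval of -0.10 to 0.12. DOT1L, a histone H3 methyltransferase, differed by -0.09 ± 0.07 with an interval of -0.24 to 0.06. MKI67, a marker of cycling cells, had 512, 509, 501 and 674 CPM in ungated cells and differed by 0.08 ± 0.12. TERT, whose counts cannot separate introduced hTERT from the cells' own gene, had 1432, 789, 732 and 605 CPM in ungated cells. Its differences within replicate numbers rested on replicate 3, where the gates lay at 929 to 2039 CPM from low to high, and the log2 fold change was -0.18 ± 0.14 with that ungated library and 0.03 without it. None of these genes was called in the comparison with all 4 gates, but with no filter on low counts TERT was called, at -0.18 with an adjusted p of 0.0149 in edgeR.

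Measured against each gate in turn, ungated cells lay between the inner gates. Against high dye, 1107 of 14592 genes (7.59%) were called, 573 higher (3.93%) and 534 lower (3.66%) in ungated cells. Against midhigh dye 0 genes (0%) were called, and against midlow dye 4 genes (0.0274%), all higher. Against low dye 1575 genes (10.8%) were called, 1051 higher (7.2%) and 524 lower (3.59%). The 4 genes called against midlow dye were IGFBP5, TMEM132B, AK4 and FAM43A. AK4 had a mean of 0.558 CPM, and its midlow levels of 0, 0, 0.273 and 0.183 CPM were near the counting limit of 0.150 to 0.200 CPM. Its ungated levels were 0.344, 0.589, 2.46 and 0.830 CPM in replicates 1 to 4. No gene was called above or below every gate at once, with or without ungated replicate 3 (0%). With all libraries this count could only be 0, because 0 genes were called against midhigh dye. By group means in CPM, without a test, ungated cells lay outside the range of the 4 gates in 3670 of 14592 genes. The 4 comparisons with single gates share the ungated libraries.

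A position on the dye axis was read from the 193 genes that were called between high and low dye, changed at least 2-fold and had a mean of at least 5 CPM. With low dye set to 0 and high dye to 1 in each replicate number, ungated cells lay at 0.484, 0.621, 0.584 and 0.635 in replicates 1 to 4. Midlow dye lay at 0.283 ± 0.087 and midhigh dye at 0.756 ± 0.087 (SD, n = 4 each). The ungated library was above midlow and below midhigh in 4 of 4 numbers, including number 3.

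The 44 measured genes of S phase, which build the replication machinery, averaged 5.63 ± 0.18 log2 CPM in ungated cells. From low to high dye the list averaged 6.05 ± 0.10, 5.89 ± 0.04, 5.38 ± 0.32 and 5.14 ± 0.47 (SD, n = 4 each). Ungated levels therefore fell among those of the gates. Between 40 and 43 of the 44 members lay between low and high dye within each number, against 44.3% to 53.2% of all 14592 genes tested. Those shares are not a like background. The list's median of high minus low dye was -0.91, while 9967 of the 10160 genes with at least 5 CPM changed less than 2-fold. A wide gap between the outer gates by itself raises such a tally. The p53 targets, 25 of 26 measured, ran the other way along the gates, with 5.43 ± 0.12 log2 CPM in ungated cells and 4.94 ± 0.14, 5.19 ± 0.07, 5.59 ± 0.25 and 5.91 ± 0.32 from low to high dye. Of these, 21 or 22 members lay between low and high dye within each number. The 52 genes of G2 and mitosis averaged 6.71 ± 0.13 log2 CPM in ungated cells, against 6.92 ± 0.12 in low and 6.22 ± 0.52 in high dye, and 37 to 47 members lay between those gates. The tallies were 22 to 31 of 34 for lysosomal genes and 12 to 26 of 29 for collagens and other matrix genes. In number 3 the matrix share was 41.4%, against 44.3% of all genes, and in number 2 it was 55.2%, against 46.0%. In numbers 1 and 4 it was 86.2% and 89.7%, against 53.2% and 50.9%.

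**Figure D1:**
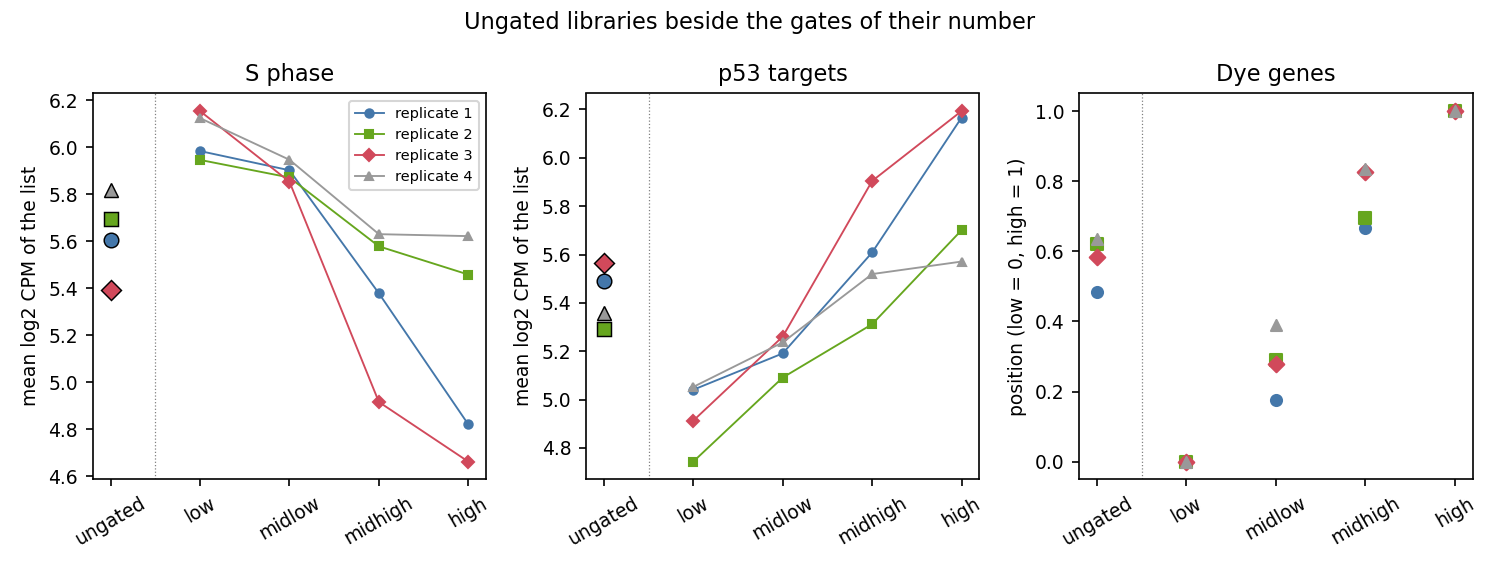
Mean log2 CPM of the S phase and p53 target lists (left and middle) and the position of each library on the dye axis from 193 dye genes (right), with ungated cells left of the gates and 1 symbol per library. Ungated symbols lie between those of low and high dye, and their dye positions of 0.484 to 0.635 lie between midlow and midhigh dye in each replicate number.

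CDKN1A, the p53 target that blocks cyclin-dependent kinases, shows the order of the groups in 1 gene. It had 406, 324, 485 and 409 CPM in ungated replicates 1 to 4. In the gates it had 193, 119, 212 and 225 CPM at low dye, 255, 190.5, 341 and 300.4 CPM at midlow dye, 471, 302, 841 and 466 CPM at midhigh dye, and 1072, 596, 1226 and 570 CPM at high dye. Every ungated library lay above midlow and below high dye of its number, and 3 of 4 lay below midhigh dye. The difference from the mean of the gates was 0.10 ± 0.12, with an adjusted p of 0.900 in edgeR. Without the high gate, where CDKN1A was highest in every number, it was called, at 0.49 ± 0.09 with an adjusted p of 0.0301 in edgeR.

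How the gates are averaged decided the sign of the median for the genes that rose most with dye. The mean of log2 levels is a geometric mean, which is always at or below the arithmetic mean that a pool of equal parts would give. Among 30 genes that rose 4-fold or more between low and high dye, the median difference of ungated cells from the mean of the gates was 0.23, and 28 of 30 lay above 0. When the gate counts of each number were summed to 1 library instead, the median was -0.11 and 10 of 30 lay above 0. For 117 genes that rose 2- to 4-fold the medians were 0.10 with the mean of log2 levels and 0.02 with summed counts. For the 46 genes that fell 2-fold or more the medians were -0.0052, with 22 of 46 above 0, and -0.076, with 10 of 46 above 0. For the 9967 genes within 2-fold both medians were 0.00. With summed counts 0 genes were called and 464 had an unadjusted p under 0.05. CDKN1A changed sign in this way, to -0.14 ± 0.09.

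**Figure D2:**
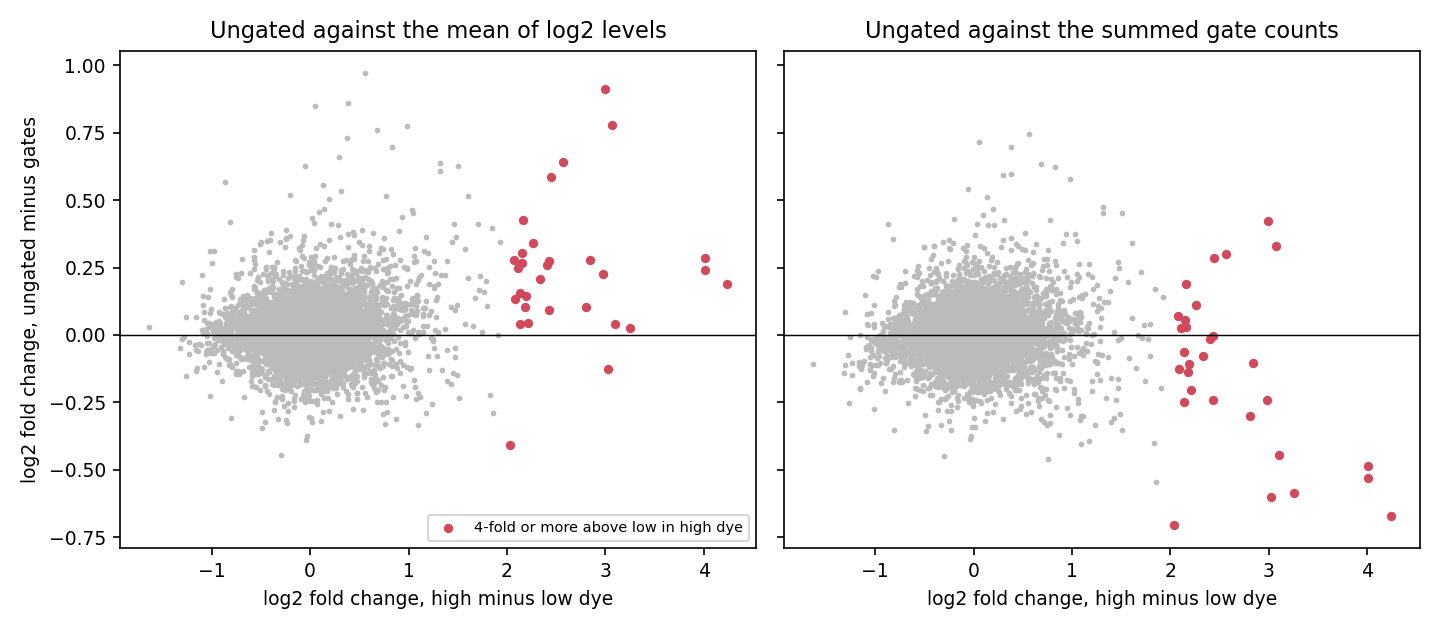
Difference of ungated cells from the gates (log2, vertical) against the log2 fold change of high over low dye (horizontal) for the 10160 genes with a mean of at least 5 CPM, with the gates averaged as log2 levels (left) or as summed counts (right). The genes 4-fold or more higher at high dye are in red: 28 of 30 lie above 0 on the left and 10 of 30 on the right.

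The genes described next were chosen after their values were seen, as those of lowest p with a mean of at least 5 CPM, and none was called against the mean of all 4 gates. Of the genes named, 12 were called with no filter on low counts and 8 when the high gate was left out. Those 8 were all called higher in high than in low dye, so leaving out that gate lowered their gate mean. TMEM132B, which encodes a transmembrane protein (chromosome 12, 125186836 to 125662377 on GRCh38, GENCODE), had 24.1, 16.4, 20.1 and 3.74 CPM in ungated replicates 1 to 4. It had 4.76, 3.31, 2.37 and 0.490 CPM at low dye, 10.4, 8.28, 4.78 and 2.87 at midlow dye, 34.6, 21.8, 12.4 and 7.25 at midhigh dye, and 46.3, 24.0, 16.6 and 7.30 at high dye. Ungated replicate 3 lay above all of its gates, and the other 3 ungated libraries lay between midlow and midhigh dye. The log2 fold change was 0.78 ± 0.14 with an adjusted p of 0.166 in edgeR, 0.48 without ungated replicate 3 and 0.33 ± 0.17 with summed gate counts. It was called without the high gate, at 1.19 ± 0.15 with an adjusted p of 0.00368, with the 2 outer gates alone, at 1.04, and with no filter.

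IGFBP5, a secreted protein that binds insulin-like growth factors (chromosome 2, 216672105 to 216695525), had 36.6, 42.2, 70.1 and 19.04 CPM in ungated replicates 1 to 4. At low dye it had 14.04, 4.43, 13.3 and 3.25 CPM, at midlow dye 24.1, 16.5, 33.0 and 11.9, at midhigh dye 65.2, 48.8, 73.7 and 29.6, and at high dye 47.5, 48.9, 75.2 and 26.7. All 4 ungated libraries lay above midlow and below midhigh dye. The log2 fold change was 0.64 ± 0.12 with an adjusted p of 0.171 in edgeR, 0.56 without ungated replicate 3 and 0.30 ± 0.10 with summed gate counts. IGFBP5 was called without the high gate, at 0.95 ± 0.13 with an adjusted p of 0.00422, and with the 2 outer gates alone, at 1.01. It was also called with no filter, without low dye replicate 1 and without number 1 in every group.

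COL3A1, a fibrillar collagen, had 20.8, 65.1, 65.4 and 53.4 CPM in ungated cells, and its difference of 0.61 ± 0.15 was 0.29 without ungated replicate 3. FIBIN, a secreted protein, differed by 0.59 ± 0.15 and by 0.24 without that library. For LRIG1, a membrane protein that restrains growth factor receptors, the difference was 0.36 ± 0.09 and 0.18 without it. BHLHE40, a transcription repressor of the clock and hypoxia response, gave 0.44 ± 0.11 and 0.22. In each of these 4 genes the difference was smaller without ungated replicate 3. All 4 were called with no filter, and FIBIN, at 0.94, and BHLHE40, at 0.60, were also called without the high gate, as was FOXP2 at 0.48.

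Other genes of low p changed less when that library was left out. FOXP2, a forkhead transcription factor, had 8.83, 10.3, 8.25 and 6.64 CPM in ungated cells and 4.30 to 8.94 CPM in the 16 gated libraries, with group means of 5.45, 5.91, 6.95 and 7.84 CPM from low to high dye. Its difference was 0.39 ± 0.09 with all libraries, 0.35 without ungated replicate 3 and 0.38 with summed gate counts. FOXP2 also was higher in high than in low dye, by 0.53 with an adjusted p of 0.00155 in edgeR. LCAT, the enzyme that esterifies cholesterol in plasma, had 7.22, 6.58, 5.45 and 6.58 CPM in ungated cells and 6.86 to 10.7 CPM in the gates, a difference of -0.39 ± 0.10, or -0.34 without ungated replicate 3. RPL26, a protein of the large ribosomal subunit with many pseudogene copies that could share its reads, had 20.2, 24.1, 21.1 and 23.0 CPM in ungated cells and 20.97 to 32.5 CPM in the gates, a difference of -0.26 ± 0.07. SIM2, a neural transcription factor, differed by -0.24 ± 0.06, and high minus low dye was -0.29 with an adjusted p of 0.00558 in edgeR. Against the mean of the gates, the adjusted p of each of these 4 genes was 0.681 in edgeR. BBS9, part of the complex that carries cargo into primary cilia, had 16.96, 18.1, 16.9 and 13.6 CPM in ungated cells and 9.93 to 17.1 CPM in the gates, and was above all 4 gates in 4 of 4 numbers.

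**Figure D3:**
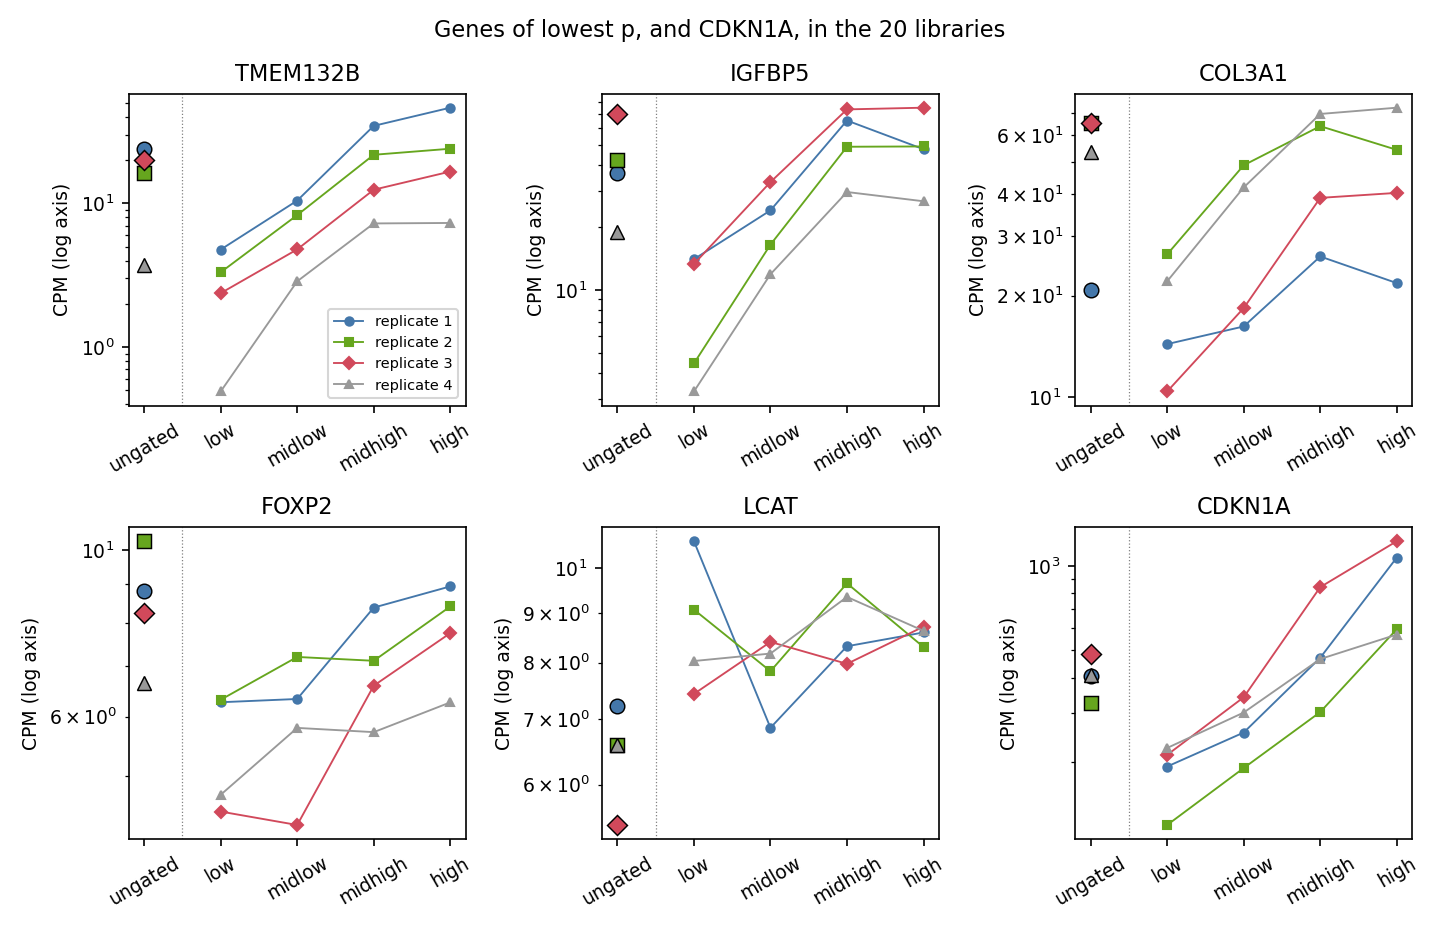
CPM on log axes of 5 genes of lowest p and of CDKN1A, with ungated libraries left of the gates from low to high dye and 1 colour per replicate number. TMEM132B and IGFBP5 are higher at midhigh and high than at low dye and ungated cells sit above midlow dye; ungated FOXP2 lies above the mean of the gates and ungated LCAT below it.

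Across all genes, 10 of 14592 (0.0685%) were above all 4 gates in every number and 5 (0.0343%) were below. A library drawn at random from the 5 of each number would be the highest in all 4 numbers with a probability of 0.0016. The same holds for the lowest. Both shares were below that level, so the genes named here are not set apart by their number. The 10 were HS3ST1, TTC23, RGS2, BBS9, ARFIP1, IL31RA, MRPL30, EIF4BP6, ITPRID2-DT and the unnamed gene ENSG00000269973. RGS2, an inhibitor of G protein signalling, had 6.42, 5.56, 12.8 and 7.71 CPM in ungated cells and 3.53 to 8.95 CPM in the gates, a difference of 0.42 ± 0.12. TTC23 differed by 0.11 ± 0.05, ARFIP1 by 0.09 ± 0.04 and MRPL30, of the mitochondrial ribosome, by 0.14 ± 0.05. The 5 below were RAPGEF3, ZNF696, PET100, GDNF-AS1 and USP46-DT. RAPGEF3, a cAMP-activated exchange factor, had 11.3, 10.7, 9.71 and 12.3 CPM in ungated cells and 10.9 to 15.3 CPM in the gates, a difference of -0.21 ± 0.07. The library kit keeps no strand, so reads of GDNF-AS1 and of the divergent transcripts cannot be told apart from those of overlapping genes.

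The lists of genes that respond to handling showed no shift in common. Of 27 immediate early genes 25 were measured, and their median log2 fold change was 0.01, equal to the 0.01 of all genes tested. Their median was -0.05, 0.03, 0.08 and 0.05 in replicates 1 to 4. The 16 heat shock genes had a median of 0.01 and the 18 chaperones and sensors of the endoplasmic reticulum a median of -0.01. None of their members was called (0% of all genes), and 3 immediate early genes had an unadjusted p under 0.05, all higher, against 972 of 14592 over all genes. Among the other lists, S phase had a median of 0.00 (44 genes), p53 targets 0.01 (25 genes), G2 and mitosis 0.05 (52 genes), lysosomal genes 0.01 (34 genes), ribosomal proteins -0.01 (62 genes), mitochondrially encoded genes 0.06 (13 genes) and collagens and other matrix genes 0.04 (29 genes). The interferon-stimulated genes were the list farthest from 0 among those with at least 10 measured members, with a median of 0.33 (27 of 31 measured). Without ungated replicate 3 that median was 0.02. With all 20 libraries, 13 of these 27 genes and 8 of the 29 matrix genes had an unadjusted p under 0.05 in edgeR, all higher. Of 26 secreted and inflammatory genes, with a median of 0.03, 7 were higher and 1 was lower by that measure. Over all 14592 genes it was 660 higher and 312 lower.

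**Figure D4:**
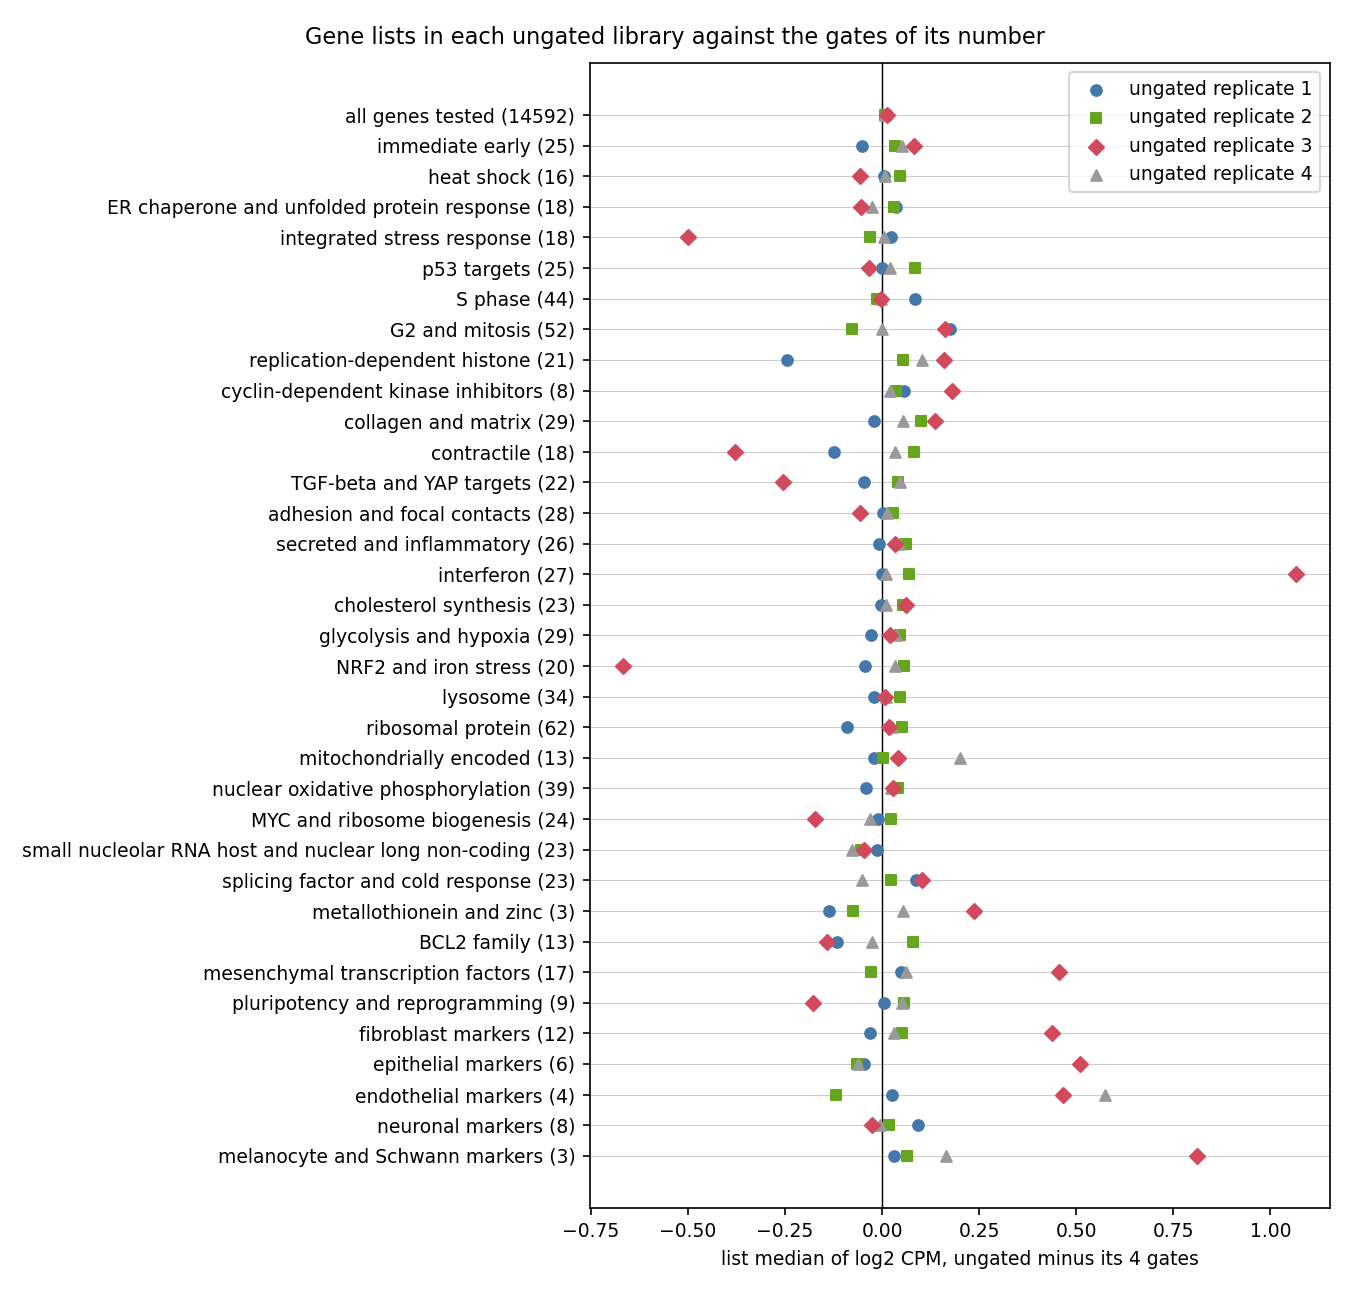
Median over each gene list of the difference in log2 CPM between an ungated library and the mean of the 4 gates of its number, with the number of measured genes in brackets and 1 symbol per ungated library. Ungated replicate 3 (red diamonds) lies at 1.07 for the interferon list and at -0.67 for the NRF2 and iron stress list, while replicates 1, 2 and 4 lie within 0.07 of 0 on both.

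Ungated replicate 3 differed from its gates more than the other ungated libraries did from theirs. The median absolute difference over all genes was 0.117, 0.0955, 0.172 and 0.0784 log2 units in replicates 1 to 4. Among the 10160 genes with a mean of at least 5 CPM, 66 were at least 2-fold higher and 33 at least 2-fold lower in ungated replicate 3, against 0, 4 and 0 higher and 0, 0 and 0 lower in replicates 1, 2 and 4. Set against the other 4 libraries of its number in the same way, a high or low dye library had 19 to 187 such genes, and a midhigh or midlow dye library 2 to 19. In number 3 the inner gates had 19 (midhigh) and 18 (midlow), against 99 in ungated replicate 3. Deviations from the group means correlated at 0.256 on average between ungated replicate 3 and the 4 gates of its number, and at 0.477 between the other ungated libraries and theirs. Its depth of 15027581 gene counts was the second lowest of the 20 libraries, and its 10 most abundant genes took 6.08% of counts, the lowest share of the 20. Mitochondrial genes took 2.82% and reads assigned to no feature were 5.68%, both inside the range of the other libraries.

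Of the lists, the interferon-stimulated genes had the highest median in ungated replicate 3 and the most members at least 2-fold higher. These genes are normally switched on when type I or type III interferon binds its receptor, or when a cell senses viral or displaced nucleic acid. Of the 27 measured, 25 were higher in ungated replicate 3 than in the mean of its gates, and 15 were at least 2-fold higher. The list median was 1.07 in ungated replicate 3, and 0.00, 0.07 and 0.01 in replicates 1, 2 and 4. In level the list averaged 3.90 log2 CPM in ungated replicate 3, against 2.40 to 2.98 in its gates and 2.40 to 3.35 in the other 19 libraries. With other scaling factors the difference was 1.06 to 1.09, while the median of all genes was 0.00 to 0.04. No member was called in the comparison of ungated cells with gates.

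IFIT1, a sensor of foreign RNA caps (chromosome 10, 89392546 to 89406486), had 4.64, 12.8, 36.0 and 4.63 CPM in ungated replicates 1 to 4. Its levels in number 3 were 3.91, 4.92, 5.78 and 6.79 CPM from low to high dye, and its highest level among the other 19 libraries was 13.2 CPM. IFIT1 was the only one of the 10160 genes that was at least 2-fold above all other 19 libraries. IFI6, which limits viral replication at the endoplasmic reticulum, had 8.48, 24.6, 49.0 and 9.85 CPM in ungated replicates 1 to 4, against 9.16, 9.15, 11.9 and 14.5 CPM from low to high dye in number 3. ISG15, a ubiquitin-like modifier, had 8.71, 15.997, 36.4 and 9.97 CPM in ungated replicates 1 to 4, against 9.42, 11.2, 17.8 and 16.8 CPM from low to high dye in number 3. In all 3 genes replicate 3 was the highest ungated library, above its gates, and replicate 2 was next.

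The other members ranged widely in the same library. IFI44L was 2.77 and IFI44 2.06 log2 units above the gates of number 3, and OAS3, which makes the activator of RNase L, was 1.57 above. MX1, a GTPase that blocks viruses, was 2.47 above, at 4.06 CPM, while B2M, the light chain of MHC class I, was 0.18 above. TAP1, the peptide transporter of the same antigen pathway, was at -0.06 and ISG20, a nuclease, at -0.18. HERC6, the interferon-induced ubiquitin ligase that the list did not hold, had 19.9 CPM in ungated replicate 3, against 4.44 to 5.83 CPM in its gates.

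Promoters of 4 members are shown because they are among those highest above their gates and hold the core of the interferon-stimulated response element. In RefSeq promoters of GRCh38.p14, the 250 bases before the start held GAAA, any 2 bases and GAAA on either strand in 15 of the 22 measured interferon genes with a promoter entry. The same pattern was found in 256 of 10555 tested genes (2.43%) and in 3.07% of all 27305 promoters. Presence did not follow the size of the difference: MX1 held 0 matches, while TAP1 and B2M held 2 each and ISG20 held 1. Capitals mark the matches, which on the other strand read TTTC, any 2 bases and TTTC, and matches can overlap.
IFIT1 (chr10:89392490-89392589, plus strand): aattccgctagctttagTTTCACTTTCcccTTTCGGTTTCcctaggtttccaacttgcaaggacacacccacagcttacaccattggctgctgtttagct
IFI6 (chr1:27672216-27672315, minus strand): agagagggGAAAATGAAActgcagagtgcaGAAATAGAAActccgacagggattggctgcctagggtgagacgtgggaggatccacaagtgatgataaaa
ISG15 (chr1:1013360-1013459, plus strand): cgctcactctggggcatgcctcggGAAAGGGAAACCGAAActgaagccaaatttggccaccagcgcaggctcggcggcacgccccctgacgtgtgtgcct
IFI44L (chr1:78620345-78620444, plus strand): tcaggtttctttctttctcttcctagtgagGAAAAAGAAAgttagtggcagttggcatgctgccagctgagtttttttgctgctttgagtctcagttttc
A match says that the letters are present, and no binding was measured.

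The antioxidant and iron genes controlled by NRF2 were lower in ungated replicate 3. NRF2 is held inactive by KEAP1 until oxidants or electrophiles release it, and it then raises enzymes that make glutathione, regenerate thioredoxin and store iron. All 20 measured members (of 22) were below the mean of the gates of number 3, and 6 were at least 2-fold lower. The list median was -0.67 in ungated replicate 3, and -0.05, 0.06 and 0.03 in replicates 1, 2 and 4. In level the list averaged 6.14 log2 CPM in ungated replicate 3, against 6.54 to 7.37 in its gates and 6.04 to 7.66 in the other 19 libraries, so the library was outside its own gates but inside the range of the other numbers. With other scaling factors the difference was -0.68 to -0.64.

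TXNRD1, which regenerates thioredoxin (chromosome 12, 104215779 to 104350305), had 1592, 793, 720 and 1097 CPM in ungated replicates 1 to 4, against 1349, 1455, 1631 and 1709 CPM from low to high dye in number 3. SLC7A11, the cystine importer that feeds glutathione synthesis, had 623, 215, 189 and 381 CPM in ungated replicates 1 to 4, against 529, 633, 776 and 857 CPM from low to high dye in number 3. Among the ungated libraries both genes were lowest in replicate 3, which lay below every gate of its number. HMOX1, which breaks down haem, had 43.5, 21.2, 8.38 and 15.01 CPM in ungated cells and 13.6, 19.7, 52.3 and 76.7 CPM from low to high dye in number 3. FTH1, the ferritin heavy chain, had 146, 128, 77.3 and 107 CPM in ungated cells and 108, 113, 212 and 262 CPM from low to high dye in number 3. FTH1 has processed pseudogenes that could share its reads. AKR1C1, an aldo-keto reductase with near-identical paralogues, was 1.94 below its gates, GCLM, which helps make glutathione, 0.89 below, and ME1, malic enzyme, 0.02 below.

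**Figure D5:**
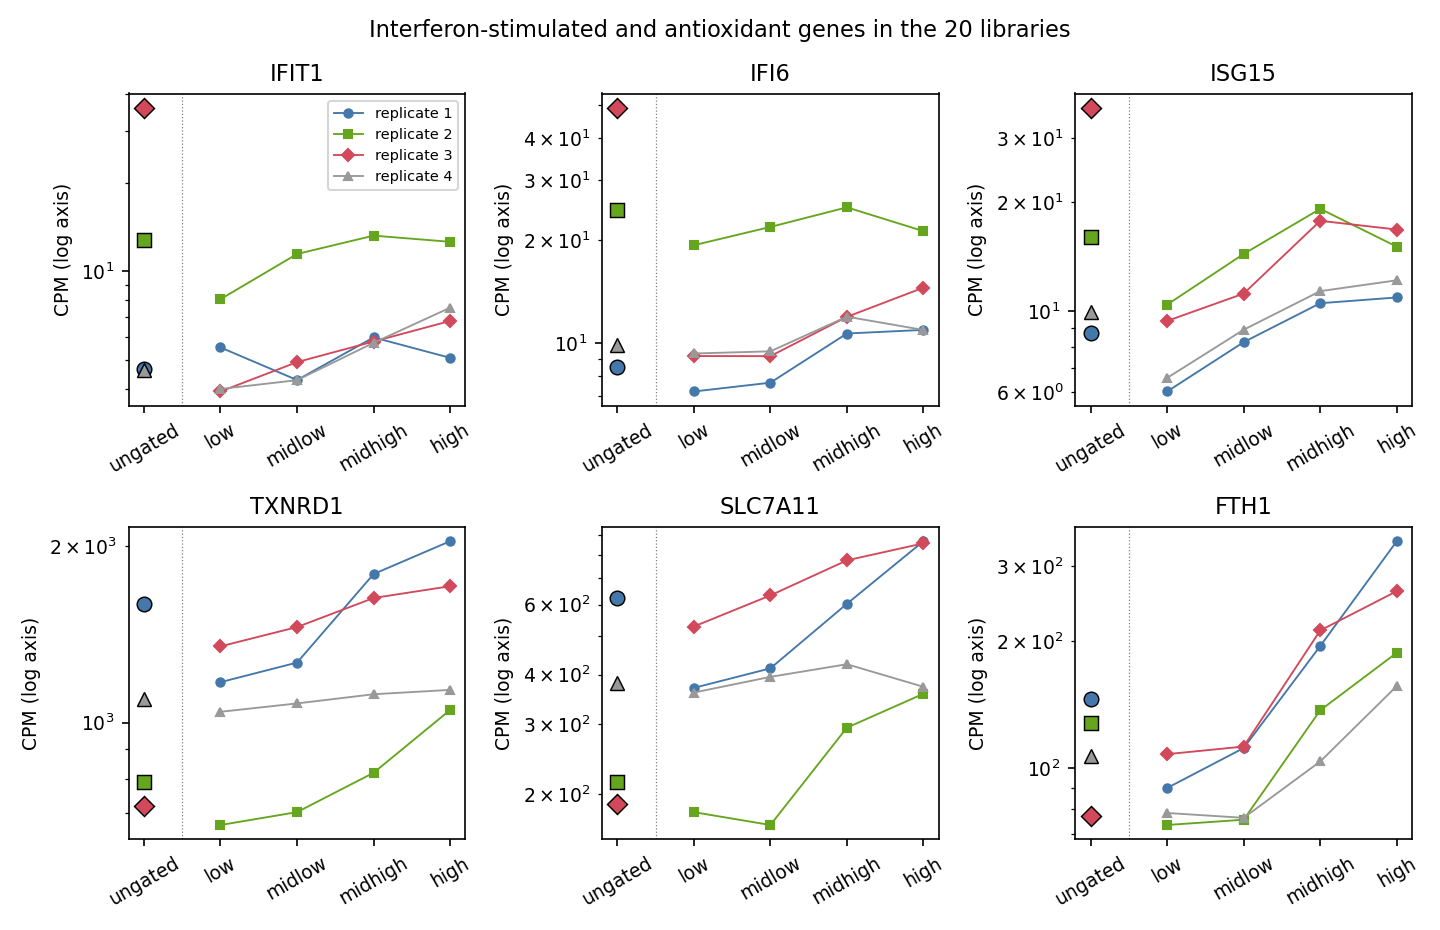
CPM on log axes of 3 interferon-stimulated genes (top) and 3 antioxidant or iron genes (bottom), with ungated libraries left of the gates from low to high dye and 1 colour per replicate number. Ungated replicate 3 is the highest of 20 libraries for IFIT1, IFI6 and ISG15 and lies below all gates of its number for TXNRD1, SLC7A11 and FTH1.

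The pattern TGAC, any 3 bases and GC, the core of the antioxidant response element, was on either strand in the same 250 bases of 4 of the 16 measured members with a promoter entry, against 12.1% of tested genes and 3013 of all 27305 promoters. The windows of TXNRD1 and GCLM are shown because both were lower in ungated replicate 3 and hold a match, in capitals.
TXNRD1 (chr12:104215650-104215749, plus strand): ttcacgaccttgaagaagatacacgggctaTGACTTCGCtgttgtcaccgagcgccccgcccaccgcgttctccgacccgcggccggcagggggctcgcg
GCLM (chr1:93909431-93909530, minus strand): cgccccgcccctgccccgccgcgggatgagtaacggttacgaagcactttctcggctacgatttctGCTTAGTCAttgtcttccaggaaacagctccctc

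Further lists moved in the same library. The ATF4 genes of the integrated stress response, 18 measured, had a median of -0.50 in ungated replicate 3 and 0.02, -0.03 and 0.01 in replicates 1, 2 and 4. All 18 were below the mean of the gates of number 3. In level they averaged 4.79 log2 CPM in ungated replicate 3, below the 4.94 to 6.02 of its gates but inside the 4.49 to 6.42 of the other 19 libraries. SLC7A11 belongs to this list too. SLC3A2, its heavy chain, had 142 CPM in ungated replicate 3, against 243 to 416 CPM in its gates, and PSAT1, an enzyme of serine synthesis, had 50.1 CPM against 75.9 to 162 CPM. The contractile genes, 18 measured, had a median of -0.38 in that library, with TPM1, a tropomyosin, at -0.77. Their level there averaged 7.91 log2 CPM, inside the 7.88 to 8.38 of its gates. The 17 mesenchymal transcription factors had a median of 0.46, with PRRX1 at 0.70 and SNAI2 at 0.65. They averaged 4.51 log2 CPM there, above the 4.14 to 4.30 of its gates but inside the 4.11 to 4.61 of the other 19 libraries. Collagens moved both ways: COL3A1 lay at 1.48 and COL1A2 at 0.47, while the basement membrane chains COL4A1 and COL4A2 lay at -0.70 and -0.67.

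Markers of other cell types in ungated replicate 3 were as follows. Epithelial markers summed to 227 CPM, against 131 to 306 CPM in the other ungated libraries and 133 to 340 CPM in the gates, and CDH3, GRHL2, ESRP1 and KRT5 were at 0. KRT18 made up 176 CPM of that sum, against a mean of 193 CPM in the gates of number 3. KRT19 had 4.06 CPM, against a mean of 1.89 CPM in its gates, and KRT15 had 5.52 CPM, against 3.03 CPM. EPCAM had 1.07 CPM, from 16 counts, against 0.556 CPM. Each of KRT19, KRT15 and EPCAM was at its highest of the 20 libraries. The 6 measured members averaged 2.90 log2 CPM, against 1.83 to 2.73 in the other 19 libraries, and 5 of them were above the mean of the gates of number 3. Endothelial markers summed to 75.2 CPM, against 79.3 to 107 CPM in the other ungated libraries and 70.4 to 103 CPM in the gates, with ERG and CDH5 at 0. TEK made up 67.3 CPM of that sum, against a mean of 86.0 CPM in the gates of number 3. EMCN had 4.33 CPM, the highest of the 20 libraries, against a mean of 1.21 CPM in its gates, and KDR had 2.26 CPM, against 0.854 CPM. TIE1 had 0.266 CPM, against 0.470 CPM. Of the 4 measured endothelial markers, 2 were above the mean of the gates of number 3. Of 13 myeloid, lymphoid and erythroid markers 12 were at 0, and the list summed to 0.532 CPM, against 0.382 to 1.05 CPM in the other ungated libraries and 0.150 to 1.504 CPM in the gates. Melanocyte and Schwann markers summed to 8.19 CPM, against 2.94 to 4.77 CPM in the other ungated libraries and 2.14 to 9.10 CPM in the gates, with SOX10 and S100B at 0. Neuronal markers, many of which fibroblasts express, summed to 1136 CPM, against 788 to 1093 CPM in the other ungated libraries and 614 to 1346 CPM in the gates, with 5 of 15 at 0. Whether cells of these types were present, and what part they or the handling of this library had in its levels, was not tested.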

How the data were processed

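Poly(A) RNA was measured in 20 libraries of ungated and dye-gated hiF-T cells. Per the submitters' processing notes, the authors aligned reads with STAR and counted them with HTSeq on hg38 (GRCh38); versions, annotation release and strand setting are not given in the sources used here. The authors deposited 1 file of raw counts for each library, which they had not normalised. Reads that HTSeq left unassigned (4.98% to 7.72% with no feature, 7.14% to 7.57% ambiguous) stayed out of library sizes and tests. Of 58302 genes, 57532 had a symbol and 58039 were in GENCODE release 29, used for coordinates, which may differ from the release used for counting. A gene without a count could lie at up to 3 counts, or 0.150 to 0.200 CPM, a limit for counting error only. No 2 libraries were copies of each other (smallest chi-square per degree of freedom within a group 8.22).

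All 20 libraries entered 1 edgeR 4.0.16 fit in R 4.3.3 (glmQLFit, glmQLFTest, TMM, filterByExpr with a minimum count of 10 and total of 15), with group and replicate number as terms. The contrast was ungated minus the mean of the 4 gates, with p-values adjusted by Benjamini-Hochberg over all genes tested and a threshold of 0.05. SE was taken as |log2 fold change| over √F. Levels are TMM-scaled CPM, except the summed markers and the CPM of single epithelial and endothelial markers, which use total gene counts. Log2 CPM used a prior count of 2. DESeq2 1.42.0 (Wald test) was an alternative. The block came from the labels' numbers: deviations from group means correlated at 0.146 to 0.618 in the 40 same-number pairs, and at -0.152 on average in the 120 other pairs. Deviations sum to 0 within each group, so positive same-number values by themselves pull the average of the other pairs below 0. The labels call the replicates biological and say no more, so p-values measure the spread between these libraries.

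The comparison, gene lists and tests were chosen with earlier results of these data known. The rule for naming genes took the called genes with the largest changes and always KDM1A, DOT1L, TERT, MKI67 and CDKN1A. As 0 genes were called, every other gene named was chosen after its values were seen. The script was tested on simulated data. Promoter sequences are RefSeq's, build GRCh38.p14. Library measures and permutation tests used Python 3.11.15. Alternatives changed the block, scaling, filter, test, averaging and set of gates, and left out each library and each number. The 5 libraries with drug or solvent and a series-wide table were not used here.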

Additional observations from a re-analysis of the deposited data

Results flagged for a closer look

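In each group of 4 ungated libraries, the difference from the gates of the same number was searched for a library whose gap to the next made up most of the range (Dixon's test at the 95% level). The 5 library measures were searched as values of the ungated libraries, not as differences. Of 66 measures, 7 had such a library, and 6 of the 7 were ungated replicate 3. Chance gives about 1 in 20 only for independent measures fixed in advance. These were not, as most of the 26 genes among them were picked from the same values and some lists share members.

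The median of the interferon list was 1.07 in ungated replicate 3. That of the NRF2 and iron stress list was -0.67 and that of the integrated stress response -0.50 in the same library. The epithelial marker list, of which 6 members were measured, had a median of 0.51 there. ARL6IP5, a protein of the endoplasmic reticulum, differed by 0.38 and RAPGEF3 by -0.30 in ungated replicate 3. The exception was the S phase list, with a median of 0.08 in ungated replicate 1. The interferon, NRF2 and stress lists share members or were counted in the same library, so these are not independent.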

How the results depend on the processing

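The count of 0 genes called for ungated cells against the mean of the gates held under RLE, upper quartile and total count scaling (944 to 981 genes at an unadjusted p under 0.05), a minimum count of 50 (776), the mean of the 2 inner gates (630), summed gate counts (464) and DESeq2 (797). Without the replicate block it was also 0, with 279 at an unadjusted p under 0.05. It became 178 with no filter on low counts, where the count against every gate was 19, 29 without the high gate and 2 (TMEM132B and IGFBP5) with the mean of the 2 outer gates; the cause was not tested. Leaving out single libraries, or all 5 of a number, gave 0 to 1 calls, the 1 being IGFBP5. The count against every gate was 0 under every other alternative run for it.

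Of the genes named, 12 were called with no filter and 8 without the high gate. The following changed sign, without being called where the sign changed. KDM1A became -0.058 and MKI67 -0.094 without the high gate, KDM1A -0.0081 with the inner gates, and CDKN1A -0.14 with summed gate counts. Leaving out ungated replicate 3, or number 3 in all groups, gave KDM1A -0.023 and TERT 0.029, as did DESeq2 without ungated replicate 3 (added after seeing the data). Over single libraries left out, KDM1A ranged from -0.023 to 0.032 and TERT from -0.31 to 0.029. The interferon list median ranged from 0.02 to 0.48 and the NRF2 and iron stress list median from -0.21 to 0.02 over the alternatives. Genes below about 5 CPM were bounded less closely: over all genes tested 81.5% lay within 1.5-fold, against 99% of those above that level.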
